A study of Sus scrofa with 15 samples.

Results

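The CD2 and SLAM family receptors, with the SAP adaptors that serve them, were taken as a list of 10 gene symbols (*CD2*, *CD48*, *CD58*, *CD244*, *SLAMF1*, *SLAMF6*, *SLAMF7*, *CD84*, *SH2D1A* and *SH2D1B*) and read from a porcine count table by symbol. Of the 10 symbols, 9 had a row among the 29886 genes of the table, and all 9 were among the 10939 genes that passed a filter on low counts. *SLAMF7* was not analysed here. The sequenced RNA came from 5 pigs (*Sus scrofa*), each 6 months old. Each animal gave circulating NK cells with high CD8α (blood cNK cells), NK cells with high CD8α from the perfusate of its flushed liver, and CD8α dim liver-resident NK cells (lrNK cells) from that same perfusate, so that 15 libraries were obtained. All populations were depleted of cells with CD3 or CD172a and were then sorted by flow cytometry, the liver populations differing from each other in the amount of CD8α on the cell surface. None of the pigs was treated or genetically modified as far as the labels and the methods state, and each library is a sorted population, in which fewer cells of a type and less RNA per cell cannot be told apart.

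CD2 and the SLAM receptors are immunoglobulin-like proteins through which lymphocytes bind each other and their target cells. CD2 binds CD58 (and CD48 in rodents), CD244 binds CD48, and SLAMF1, SLAMF6 and CD84 each bind a copy of themselves on a neighbouring cell. The tails of CD244, SLAMF1, SLAMF6 and CD84 carry tyrosine motifs to which the adaptors SAP (*SH2D1A*) and EAT-2 (*SH2D1B*) dock, SAP bringing the kinase FYN. In NK cells the presence of these adaptors is known to decide whether the receptors activate or restrain killing.

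Library totals ran from 2003499 to 5680221 counts (median 3686363), with 2003499 to 3776823 in the lrNK libraries. Levels are given as CPM (the share of a library's counts, scaled to a common depth after TMM normalization), and each adjusted p on a gene is from edgeR (quasi-likelihood F test, adjusted over the 10939 genes after Benjamini and Hochberg). The libraries start at the 3′ end of the transcript, so that a level does not grow with transcript length. All 8 NK cell markers of a list had counts in each population, with a summed level of 3169 to 4488 CPM in blood, 3498 to 4261 CPM in liver CD8α high and 3188 to 5967 CPM in lrNK cells. The sums hide members that differed in opposite directions. Mean levels in lrNK cells and blood were 677 and 39.5 CPM for *EOMES* and 1387 and 275 CPM for *KLRB1*. For *TBX21* they were 195 and 1143 CPM, and for *GZMB* 32.9 and 209 CPM. B cell markers were higher in the lrNK libraries, with a summed level of 278 to 800.4 CPM against 59.4 to 155 CPM in blood and 32.9 to 68.4 CPM in liver CD8α high cells. That list held 7 genes, of which 6 had counts in each population, *CD79A* was at 0 throughout and *BLK* was as high in blood (29.1 ± 11.8 CPM) as in lrNK cells (28.7 ± 10.4 CPM), and *MS4A1*, which encodes CD20, gave the largest part of it (267 ± 134 CPM in lrNK cells, SD, n = 5). The plasma cell list was likewise higher, at 95.1 to 448 CPM against 13.3 to 57.5 and 4.06 to 21.6 CPM. T cell markers summed to 110 to 593 CPM in lrNK cells, 637 to 1203 CPM in blood and 714 to 1076 CPM in liver CD8α high cells, nearly all of it *CD3G*, with *CD4*, *CD5* and *CD28* at 0. Markers of myeloid cells, hepatocytes and endothelium stayed under 10 CPM in each library. CD48, CD84, SLAMF1, SLAMF6 and LY9 are also known on B cells. The sort took cells with CD8α, which B cells are not known to carry, and the part of such cells in the levels below was not tested.

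Of the 9 genes measured, 4 were higher in lrNK cells than in blood cNK cells at an adjusted p under 0.05 (*CD244*, *CD84*, *SLAMF6* and *SH2D1B*) and 0 were lower. Over all genes tested, 8.62% were called higher and 9.6% lower in this comparison. Against liver CD8α high NK cells, lrNK cells had the same 4 at a higher level and 0 at a lower one, where 6.96% of all genes were called higher and 7.68% lower. *SLAMF1* was also called higher there, a call that is not read against these shares, because the gene was tested through its level in lrNK cells, and that is lost with the pig as a block. The median log2 fold change was 0.82 against blood and 0.79 against liver CD8α high cells over 7 genes, without *SLAMF1* and *SH2D1A*, which passed the filter mainly through lrNK libraries (0.91 and 1.06 with them), and that of all genes was 0.01 and 0.02. Both comparisons use the same lrNK libraries. Without the library of lrNK pig 3, *CD2* was called lower in both.

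Liver CD8α high and blood NK cells were not set apart by any of the 9 genes, with 0 called higher and 0 called lower by edgeR and by DESeq2, and 0 genes at an unadjusted p under 0.05 (the smallest was 0.151, for *SLAMF1*). Over all genes, 0.0457% were called higher and 0.0183% lower between these populations, so that calls were rare throughout. The median log2 fold change of the 9 genes was -0.16.

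**Figure D1:**
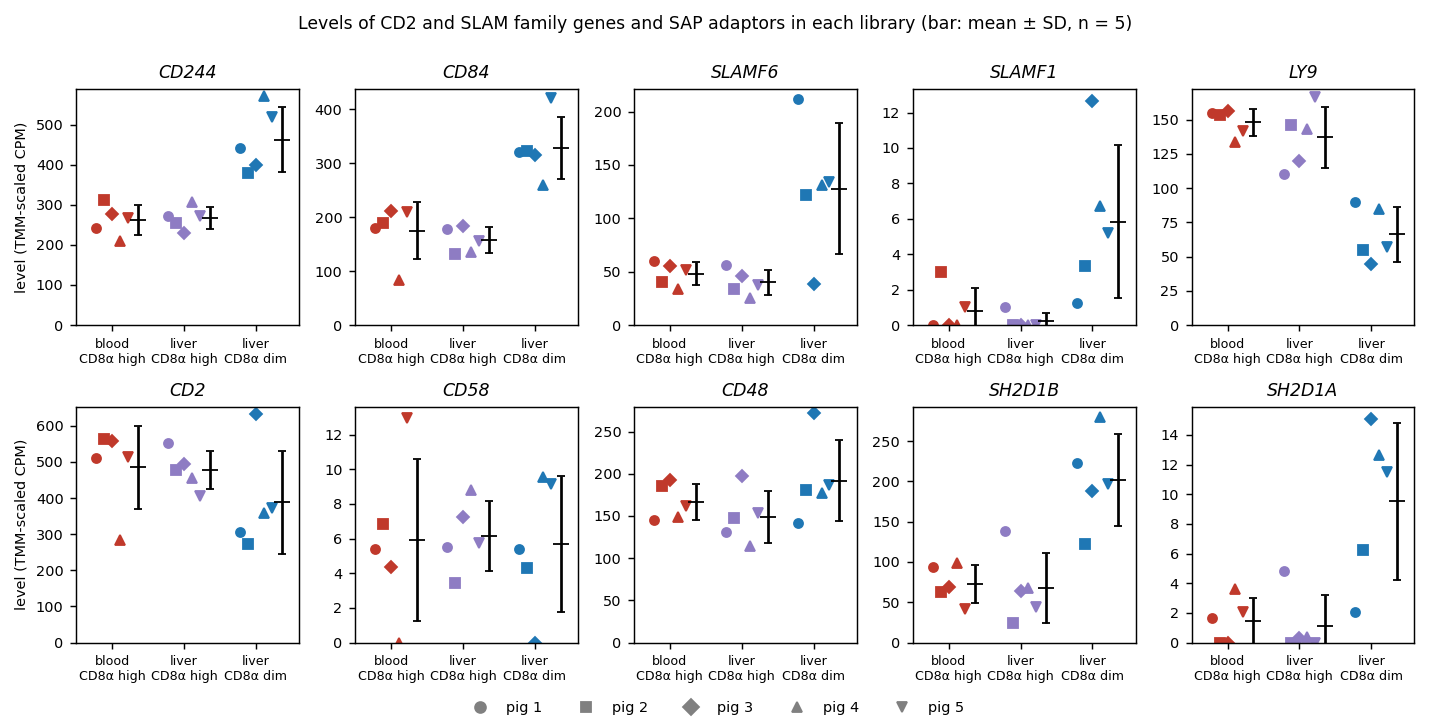
Levels of the 9 measured genes and of *LY9* in each of the 15 libraries, in TMM-scaled CPM on the vertical axis, by NK cell population on the horizontal axis. Symbols mark the pig and bars the mean ± SD of 5 pigs. The lrNK libraries lie above all others for *CD244* and *CD84* and below all others for *LY9*, whereas those of *CD2*, *CD48* and *CD58* overlap with the other populations.

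**Figure D2:**
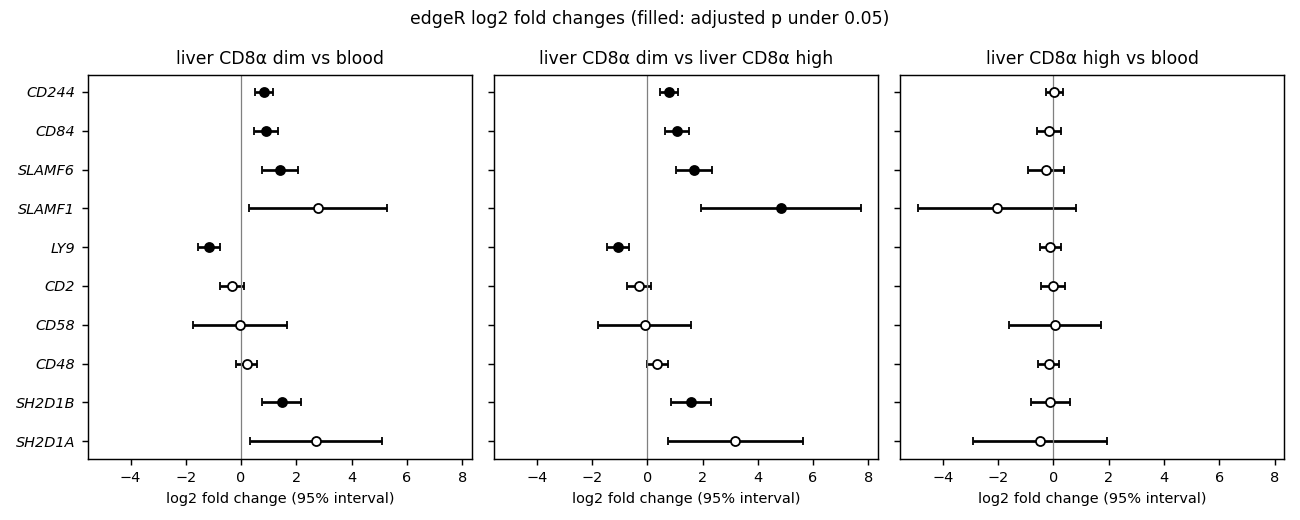
Log2 fold changes from edgeR with 95% intervals for the 9 genes and *LY9*, one panel per comparison, with filled points at an adjusted p under 0.05. In the lrNK comparisons all filled points of the listed genes lie to the right of 0 and those of *LY9* to the left, at -1.16 and -1.05, and in the comparison of CD8α high cells of liver and blood no point is filled.

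Among the receptors, *CD244* (2B4, the receptor of CD48) reached 442, 380, 399, 570 and 518 CPM in the lrNK cells of pigs 1 to 5. The same pigs gave 241, 311, 277, 211 and 268 CPM in blood and 273, 255, 231, 307 and 271 CPM in liver CD8α high cells. Every lrNK library lay above every library of the other populations, and the populations from blood and from liver with high CD8α covered the same range. The log2 fold change of lrNK cells was 0.82 ± 0.15 (SE) against blood (edgeR adjusted p = 0.000508) and 0.79 ± 0.15 against liver CD8α high cells (edgeR adjusted p = 0.000853). Within a pig, the ratio of the lrNK level to the blood level ran from 1.22 in pig 2 to 2.71 in pig 4, and that to the liver CD8α high level from 1.49 to 1.91.

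*CD84*, a receptor that binds itself, was measured at 321, 322, 316, 259.8 and 421 CPM in lrNK cells. It stood at 180.5, 188, 212, 83.5 and 210.2 CPM in blood and at 177, 131, 185, 135 and 156 CPM in liver CD8α high cells. The lrNK libraries lay above all others, and the blood and liver CD8α high libraries overlapped, blood pig 4 being far below the rest of its group. Levels in lrNK cells were higher by a log2 fold change of 0.91 ± 0.21 against blood (edgeR adjusted p = 0.00354) and of 1.06 ± 0.21 against liver CD8α high cells (edgeR adjusted p = 0.00103), in 5 of 5 pigs in both comparisons. 

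*SLAMF6* (NTB-A), another receptor that binds itself, had 212, 122, 39.0, 132 and 134 CPM in lrNK cells. Levels of 59.6, 40.8, 55.1, 34.0 and 51.9 CPM were found in blood, and of 56.6, 34.0, 46.0, 25.9 and 37.3 CPM in liver CD8α high cells. In 4 of 5 pigs the lrNK library was far above both others, and in pig 3 it was below them, so that the groups overlap through a single library. The log2 fold change was 1.40 ± 0.31 against blood (edgeR adjusted p = 0.00273) and 1.68 ± 0.32 against liver CD8α high cells (edgeR adjusted p = 0.000665). Pig 3 also had the lowest B cell marker sum among the lrNK libraries, 278 CPM against 315 to 800.4 CPM in the other 4. That library had the highest plasma cell marker sum, 448 CPM against 95.1 to 424 CPM in the other 4. It stood apart in NK cell markers too, being the lowest lrNK library in 5 of 8 (*NCR1* at 156 CPM against 248 to 356 CPM, *KLRK1* at 75.5 against 330.2 to 1168 CPM, *KLRB1* at 193 against 1089 to 2316 CPM, *TBX21* at 80.9 against 201 to 246 CPM and *GZMB* at 3.41 against 13.4 to 65.2 CPM) and the highest in *PRF1* (574 CPM) and *NKG7* (1391 CPM). The part of these in its *SLAMF6* and *CD2* levels was not tested. Without that library the log2 fold change of *SLAMF6* was 1.65 against blood (edgeR adjusted p = 1.84e-05) and 1.91 against liver CD8α high cells (edgeR adjusted p = 3.73e-06).

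*SLAMF1* (CD150), the receptor that gave the family its name, was close to the limit of detection. Its counts were 3, 7, 26, 24 and 20 in the lrNK libraries, 0, 11, 0, 0 and 3 in the blood libraries, and 3, 0, 0, 0 and 0 in the liver CD8α high libraries. Reads were thus found in every lrNK library, at up to 12.7 CPM in pig 3, and in few of the others, and the gene passed the filter on low counts through 4 lrNK libraries and a blood library, so that it was tested against liver CD8α high cells because of its level in lrNK cells. Pooled over 5 libraries and scaled to depth, 80 counts in lrNK cells against 14 in blood gave a ratio of 6.86 (95% exact interval of counting error only, 3.86 to 13.1), and against 3 in liver CD8α high cells a ratio of 38.8 (12.8 to 192). edgeR's adjusted p was 0.122 against blood and 0.0212 against liver CD8α high cells. The latter call is lost when the pig is a block in the fit (adjusted p = 0.0524) and when pig 3, 4 or 5, or the liver CD8α high library of pig 2, 3, 4 or 5, is left out (adjusted p = 0.0610 to 0.102). Blood pig 2 held 11 of the 14 blood counts. Without it the log2 fold change against blood was 4.39 (edgeR adjusted p = 0.0449), and with it 2.78.

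*LY9* (SLAMF3), a SLAM receptor outside the list, went the other way. Its level was 89.7, 54.7, 44.3, 85.1 and 57.2 CPM in lrNK cells, 155, 154, 156, 133 and 142 CPM in blood, and 111, 146, 119.9, 143 and 166 CPM in liver CD8α high cells. All lrNK libraries were below all others. The gene fell by 1.16 ± 0.19 on the log2 scale against blood (edgeR adjusted p = 0.000162) and by 1.05 ± 0.19 against liver CD8α high cells (edgeR adjusted p = 0.00052).

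*CD2*, the founding adhesion receptor, had the highest level of the 9 genes in blood and in liver CD8α high cells. Its levels were 511, 563, 557, 285 and 513 CPM in blood, 552, 479, 495, 456 and 407 CPM in liver CD8α high cells, and 305, 272, 634, 359 and 372 CPM in lrNK cells. In 4 pigs the lrNK library lay at 272 to 372 CPM, below all liver CD8α high libraries, whereas lrNK pig 3 was the highest of all 15 libraries and blood pig 4 was low among the blood libraries. The log2 fold change of lrNK cells was -0.32 (95% interval -0.76 to 0.12, edgeR adjusted p = 0.337) against blood and -0.30 (-0.74 to 0.14, edgeR adjusted p = 0.425) against liver CD8α high cells. Without the library of lrNK pig 3 these were -0.55 (edgeR adjusted p = 0.0285) and -0.54 (edgeR adjusted p = 0.0393), and without that library and blood pig 4 they were -0.70 (edgeR adjusted p = 0.00118) and -0.54 (edgeR adjusted p = 0.00685), an alternative added after the data were seen.

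The ligands did not pass the test in any comparison. *CD48*, the ligand of CD244, was measured at 142, 180.5, 272, 177 and 187 CPM in lrNK cells, 146, 186, 193, 149 and 161 CPM in blood, and 131, 148, 197, 114 and 153 CPM in liver CD8α high cells. The groups overlap, pig 3 being the highest lrNK library. Its log2 fold change was 0.20 (95% interval -0.18 to 0.58, edgeR adjusted p = 0.526) against blood and 0.37 (-0.01 to 0.75, edgeR adjusted p = 0.22) against liver CD8α high cells, where it was higher in lrNK cells in 5 of 5 pigs.

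*CD58*, the ligand of CD2, had few reads. Counts were 20, 25, 16, 0 and 38 in blood, 16, 13, 26, 51 and 24 in liver CD8α high cells, and 13, 9, 0, 34 and 35 in lrNK cells, with 0 counts allowing up to 1.08 CPM in blood pig 4 and 1.46 CPM in lrNK pig 3. No population stood apart. Pooled and scaled to depth, the lrNK counts were 1.10 times those of blood (95% exact interval of counting error only, 0.821 to 1.48) and 1.02 times those of liver CD8α high cells (0.77 to 1.34). With the spread between libraries, the interval of edgeR's log2 fold change ran from -1.73 to 1.66 and from -1.78 to 1.59, so that a sizeable change either way would not have been called. A second annotated gene, *LOC100511379*, shares 1693 bases with *CD58*, and reads there may be counted for either.

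The adaptor genes were higher in lrNK cells by their means, at unlike precision. *SH2D1B*, which encodes EAT-2, reached 223, 122, 188, 280.0 and 197 CPM in lrNK cells. It had 94.0, 62.8, 68.7, 99.0 and 41.6 CPM in blood and 139, 23.7, 63.8, 68.1 and 44.7 CPM in liver CD8α high cells. All lrNK libraries were above all blood libraries, and of the liver CD8α high libraries a single one, of pig 1, was above the lowest lrNK library. The log2 fold change was 1.46 ± 0.34 against blood (edgeR adjusted p = 0.00397) and 1.58 ± 0.34 against liver CD8α high cells (edgeR adjusted p = 0.00251), with a higher level in 5 of 5 pigs in each.

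The reads of *SH2D1B* may not all be its own. Its annotated span on chromosome 4 (88097534 to 88129792) shares 562 bases with *C4H1orf226*, and counts of *C4H1orf226* were 95.1% to 124% of those of *SH2D1B*, within 10% of them in 14 of 15 libraries. Strand was not named as a counting setting, so reads of the genes cannot be told apart.

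**Figure D3:**
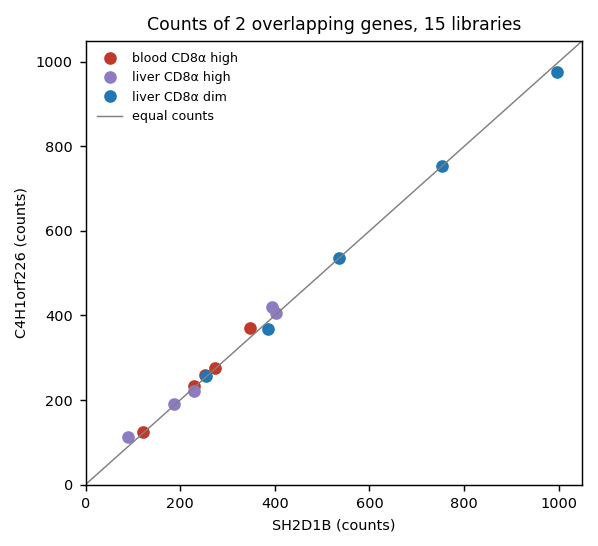
Counts of *C4H1orf226* (vertical axis) against counts of *SH2D1B* (horizontal axis) in the 15 libraries, coloured by population, with a line at equal counts. The points lie along the line in all 3 populations, within 10% of it in 14 libraries.

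*SH2D1A*, which encodes SAP and lies on the X chromosome (101824602 to 101847265), had counts of 5, 13, 31, 45 and 44 in lrNK cells. Blood gave 6, 0, 0, 10 and 6 counts and liver CD8α high cells 14, 0, 1, 2 and 0. In pigs 2 to 5 the lrNK library was above both others of the pig, and in pig 1 the 14 counts of the liver CD8α high library (4.83 CPM) were above the 5 of the lrNK library (2.08 CPM). That liver CD8α high library was also the highest of its population in *EOMES* (218 against 14.1 to 62.5 CPM), *NCR1* (167 against 11.2 to 40.6 CPM) and *KLRB1*. It was the lowest in *TBX21* and *KLRK1*, and within the others in *PRF1*, *GZMB* and *NKG7*. The part of this in its *SH2D1A* level was not tested. Pooled and scaled to depth, the lrNK counts were 7.53 times those of blood (95% exact interval of counting error only, 4.78 to 12.4) and 11.8 times those of liver CD8α high cells (7.11 to 20.9). Like *SLAMF1*, the gene passed the filter on low counts mainly through 4 lrNK libraries, so its p-values lend no independent support. The adjusted p of edgeR was 0.111 and 0.0772, so that neither difference was called. Against liver CD8α high cells it was 0.0401 with the pig as a block, 0.0385 by DESeq2, 0.00552 without pig 1 and 0.00527 without the liver CD8α high library of pig 1. These 4 of 28 alternatives were the only ones that changed the call, and the adjusted p of edgeR or DESeq2 went up to 0.252. Without that liver CD8α high library the log2 fold change was 5.57, against 3.19 with it.

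The order of the genes by mean level differed between lrNK cells and the other populations. In blood and in liver CD8α high cells the mean levels ran from *CD2* (486 ± 115 and 478 ± 53.2 CPM, SD, n = 5) over *CD244*, *CD84*, *CD48*, *SH2D1B* and *SLAMF6* to *CD58*, *SH2D1A* and *SLAMF1*. In lrNK cells *CD244* came first (462 ± 80.5 CPM), before *CD2* (388 ± 143 CPM) and *CD84* (328 ± 58.0 CPM), and then came *SH2D1B*, *CD48*, *SLAMF6*, *SH2D1A*, *SLAMF1* and *CD58*. The ranges of neighbours in this order overlapped, except those of *SLAMF6* and *SH2D1A*. *CD244* was above *CD2* in 4 of 5 lrNK libraries, all but that of pig 3, and in 0 of 5 blood and 0 of 5 liver CD8α high libraries, and the ratio of their levels was 0.63 to 1.59, 0.472 to 0.74 and 0.467 to 0.674 respectively. *CD84* and *CD48* did not differ beyond their spread in blood or in liver CD8α high cells, nor *SH2D1B* and *SLAMF6*, and in each population a clear step separated *SLAMF6* from the genes below it. Expressed against all genes tested, *CD244* was above 93.4% of them in blood and 97.1% in lrNK cells, and *SLAMF6* above 65.7% and 85.7%. Levels of different genes can be compared only as far as their 3′ ends are equally well annotated.

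The sum of the 9 genes was 1720 ± 193 CPM in lrNK cells, 1219 ± 206 CPM in blood and 1166 ± 115 CPM in liver CD8α high cells (SD, n = 5). lrNK libraries summed to 1412 to 1875 CPM, and the highest blood library to 1366 CPM, so that the groups did not overlap.

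Whether a receptor changed relative to its ligand or adaptor was asked from the log2 ratio of the levels within each library, after adding 1 CPM. The ratio of *CD244* to *CD48* was 1.28 ± 0.47 in lrNK cells, 0.64 ± 0.12 in blood and 0.86 ± 0.44 in liver CD8α high cells (SD, n = 5). It was higher in lrNK cells in 5 of 5 pigs against both, with p = 0.0317 against blood and p = 0.183 against liver CD8α high cells by a two-sided exact permutation test, or 0.25 and 0.411 when adjusted over the 9 ratio tests. The ratio of *SH2D1B* to *CD244* was -1.22 ± 0.28, -1.88 ± 0.65 and -2.18 ± 0.89 in the same order, higher in lrNK cells in 5 of 5 pigs against blood and in 4 of 5 against liver CD8α high cells, with exact permutation p = 0.0873 and 0.0556 (adjusted 0.262 and 0.25). Its numerator may hold reads of the overlapping *C4H1orf226*. For *CD2* to *CD58* the means were 6.17 ± 1.77, 6.51 ± 1.08 and 6.11 ± 0.48, with an exact permutation p of 0.698 and 0.984. lrNK cells had the lower *CD2* to *CD58* ratio in 4 of 5 pigs in both comparisons, and the values of lrNK pig 3 (9.31) and blood pig 4 (8.16), which had 0 counts of *CD58*, are set by the added 1 CPM. Against blood, pig 5 was lower by a hair (5.20055 against 5.20132) and only with that 1 CPM. Without it, the plain ratio of pig 5 was higher in lrNK cells, 40.7 against 39.6. No ratio passed at an adjusted p under 0.05 in this test, which does not pair the libraries of a pig and whose smallest p over 252 splits is 0.00794. A single ratio alone at that p would not have passed once adjusted over the 9 tests. An exact sign-flip permutation test within pigs gave adjusted p = 0.188 for *CD244* to *CD48* in both comparisons, and with 5 pigs it cannot go below 0.0625 before adjustment, so it could not have passed.

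The genes lie in groups on chromosome 4 of Sscrofa11.1. *CD244*, *CD48*, *SLAMF1*, *CD84* and *SLAMF6* fall in a span of 336 kb (89668221 to 90004222) that also holds *LY9*, *LOC100156074* and *LOC100154053*. *CD84* and *SLAMF6* are 115 bases apart, *SH2D1B* is 1.54 Mb from the span, and *CD2* (103963802 to 103976971) and *CD58* (104170827 to 104225029) are 194 kb from each other. Neighbours in the span did not move as a block: *CD244* rose and *LY9*, which follows it, fell, while *CD48* was not called. *LOC100154053*, a protein-coding gene between *LY9* and *CD48*, was singled out after its values were seen, and which named gene it corresponds to, a SLAM receptor or another, was not determined here. It had 369.6, 343, 240.2, 428 and 368 CPM in lrNK cells against 4.61 to 31.4 CPM in blood and 4.06 to 110.2 CPM in liver CD8α high cells. It was the most changed gene of the span against blood, with a log2 fold change of 4.11 ± 0.60 (edgeR adjusted p = 3.73e-05), and had 3.27 ± 0.57 (edgeR adjusted p = 0.00034) against liver CD8α high cells. *LOC100156074* had 0.39 ± 0.43 (edgeR adjusted p = 0.602) and 1.31 ± 0.44 (edgeR adjusted p = 0.0483, and 0.0708 with the pig as a block).

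**Figure D4:**
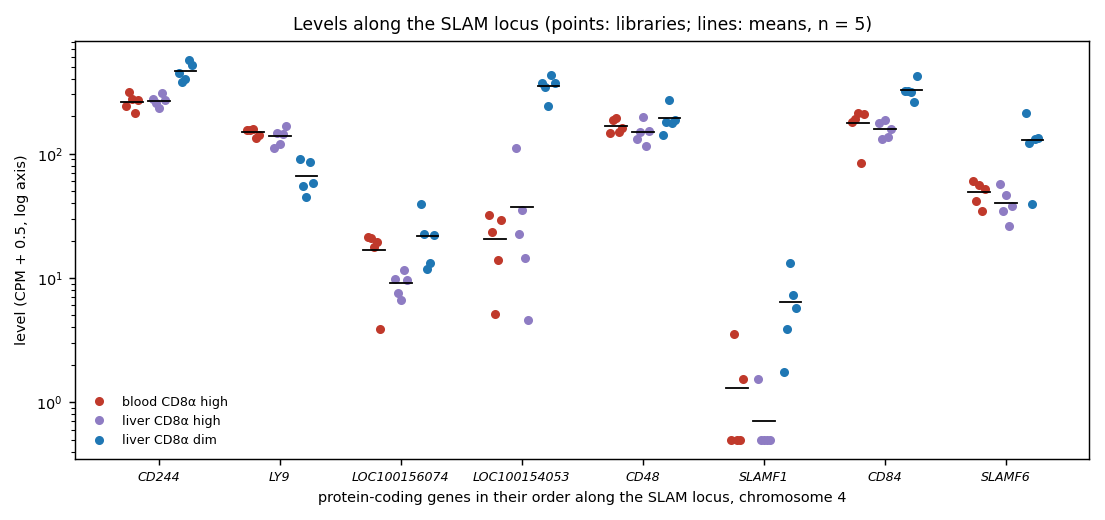
Levels of the protein-coding genes of the SLAM span in their order along chromosome 4, as CPM + 0.5 on a log axis, with a point per library and a line at each population's mean (n = 5). The lrNK points are above the others at *CD244*, *LOC100154053* and *CD84*, below them at *LY9*, and mixed with them at *CD48*.

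Other genes of the pathway were taken from a list of 38, among them 5 further surface receptors (*LY9* included), kinases, phosphatases, downstream enzymes and scaffolds, and proteins of the CD2 tail. Of these, 37 had a row and 34 passed the filter. In the comparison with blood, lrNK cells had 9 of the 34 higher, 4 lower, *LY9* among them, and 21 not called (median log2 fold change -0.02), where 8.62% and 9.6% of all genes were called higher and lower. Against liver CD8α high cells 8 were higher, 4 lower, again with *LY9*, and 22 not called (median 0.07), beside 6.96% and 7.68% of all genes, and between the CD8α high populations 0 of 34 were called. With the pig as a block *VAV3* was called as well (edgeR adjusted p = 0.0478 and 0.00454, against 0.238 and 0.081 without it).

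The kinase at SAP, *FYN*, stood at 729, 743, 1034, 900.1 and 1161 CPM in lrNK cells against 385 to 595 CPM in blood and 396 to 602 CPM in liver CD8α high cells. It was higher by a log2 fold change of 0.94 ± 0.17 (edgeR adjusted p = 0.00037) and 0.97 ± 0.17 (edgeR adjusted p = 0.000319), in 5 of 5 pigs with no overlap. The other 4 kinases tested, among them *LCK*, *LYN* and *SYK*, were not called. Of the phosphatases, *PTPN6*, which encodes SHP-1, rose by 0.91 ± 0.20 and 0.81 ± 0.20 on the log2 scale (edgeR adjusted p = 0.00278 and 0.00814), and *PTPN11*, *INPP5D* and *PTPRC* were not called.

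Of the 17 downstream enzymes and scaffolds, 5 were higher and 2 lower against blood, and 4 were higher and 2 lower against liver CD8α high cells, the lower calls being near the shares of all genes given above. *DOK1*, an adaptor that restrains Ras signalling, had 159, 116, 68.2, 142 and 102 CPM in lrNK cells against 31.8 to 56.1 CPM in blood and 30.5 to 58.5 CPM in liver CD8α high cells, a log2 fold change of 1.38 ± 0.24 (edgeR adjusted p = 0.000318) and 1.48 ± 0.25 (edgeR adjusted p = 0.000201). *RASA1*, the Ras GTPase activator that DOK proteins bind, had 1.33 ± 0.20 (edgeR adjusted p = 4.26e-05) and 0.99 ± 0.19 (edgeR adjusted p = 0.00101), and *DOK2* 1.07 ± 0.30 (edgeR adjusted p = 0.0159) and 0.60 ± 0.30, which was not called (edgeR adjusted p = 0.22). Of these, *DOK1* shares 151 bases with *M1AP* and *RASA1* shares 11788 bases with *CCNH*, so part of their counts may belong to the other gene.

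*PLCG1*, a phospholipase, had counts of 1, 4, 1, 0 and 7 in lrNK cells against 46, 19, 13, 56 and 8 in blood and 33, 52, 13, 170 and 47 in liver CD8α high cells, and each lrNK library was below every other. Its log2 fold change was -3.20 ± 0.80 (edgeR adjusted p = 0.00723) and -3.85 ± 0.81 (edgeR adjusted p = 0.00193). It shares 87 bases with *LOC110257392*, which had 8132 counts over all libraries against its 470, and reads there may be counted for either. The related *PLCG2* rose by 0.64 ± 0.15 and 0.60 ± 0.15 (edgeR adjusted p = 0.00399 and 0.00753), as did the scaffold *LCP2* (SLP-76) by 0.82 ± 0.14 and 0.61 ± 0.14 (edgeR adjusted p = 0.000169 and 0.00303). *LAT*, the membrane scaffold, fell by 1.14 ± 0.32 against blood (edgeR adjusted p = 0.014) and was not called against liver CD8α high cells (log2 fold change -0.90, edgeR adjusted p = 0.0627). Against blood it was lower in 4 of 5 pigs and the groups overlapped. The highest lrNK library had 70.6 CPM, beside a blood mean of 68.9 CPM. The adaptor *SH3BP2* fell by 1.30 ± 0.34 against liver CD8α high cells (edgeR adjusted p = 0.0119) and was not called against blood (log2 fold change -0.85, edgeR adjusted p = 0.0937).

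Among the proteins that bind the CD2 tail, *PSTPIP1* (CD2BP1, an actin regulator) was measured at 105, 131, 144, 179 and 123 CPM in lrNK cells against 26.3 to 60.4 CPM in blood and 20.3 to 62.5 CPM in liver CD8α high cells. It rose by 1.62 ± 0.27 and 1.56 ± 0.27 on the log2 scale (edgeR adjusted p = 0.000151 and 0.000253). *CD2AP*, an adaptor between CD2 and actin, went down to 21.6, 33.1, 14.1, 9.27 and 19.6 CPM from 55.3 to 111 CPM in blood and 41.7 to 101 CPM in liver CD8α high cells. It fell by 1.99 ± 0.31 and 1.84 ± 0.31 (edgeR adjusted p = 7.52e-05 and 0.000207), whereas its relative *SH3KBP1* (CIN85) rose by 0.93 ± 0.17 and 0.86 ± 0.17 (edgeR adjusted p = 0.000522 and 0.00127).

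**Figure D5:**
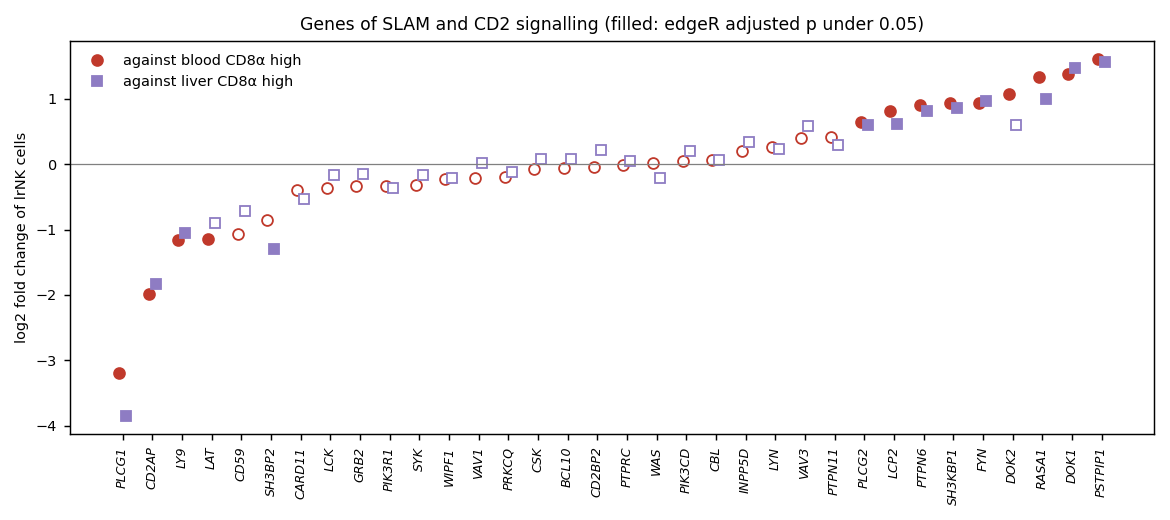
Log2 fold change of lrNK cells against blood (circles) and against liver CD8α high cells (squares) for the 34 signalling genes tested, in the order of the fold change against blood, with filled symbols at an edgeR adjusted p under 0.05. *PLCG1* and *CD2AP* lie lowest, *PSTPIP1* and *DOK1* highest, and most genes in between are open.

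For each of the 9 genes, the genes with the nearest pattern over the 15 libraries were sought by the root mean square difference of centred log2 CPM, so that 0 is the same pattern. For *CD244* they were *SEPT7* (0.167) and *TNFAIP8* (0.169), for *CD84* *RUBCN* (0.269) and *UGCG* (0.274), and for *SLAMF6* *DOK1* (0.363) and *TSPAN3* (0.383). *CD2* was nearest to *H3F3A* (0.182) and *BICRAL* (0.2), and *CD48* to *JADE1* (0.169) and *MIEN1* (0.183). *SH2D1B* was nearest to its overlapping neighbour *C4H1orf226* (0.0863), and then to *EPHB6* (0.42). Distances were larger for the genes with few counts, *CD58* (*BCDIN3D*, 0.509, and *LOC100522672*, 0.776), *SLAMF1* (*NFKBIZ*, 1.27, and *E2F2*, 1.28) and *SH2D1A* (*TMEM25* and *TTC36*, both 1.06, whose counts were equal in 15 of 15 libraries and may be the same reads counted for both). Between the 9 genes themselves, *CD244* and *CD84* were the closest pair, at 0.351.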

How the data were processed

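RNA of 3 NK cell populations from 5 pigs was made into 15 libraries with a 3′ end kit that keeps strand. The authors trimmed the reads with QuasR, aligned them with HISAT2 (version not given in the sources used here) to Sscrofa11.1 and deposited raw counts of reads per gene, without normalization. Which tool counted the reads, whether it used strand and how it treated multi-mapping reads are not given in the sources used here, so overlapping genes are uncertain. The labels tied all 15 columns to a population and an animal, and 0 columns stayed without a sample.

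edgeR 4.0.16 (R 4.3.3) was used for the tests, after TMM scaling and filterByExpr by population (minimum count 10). Its quasi-likelihood F test was run on 15 libraries in 1 fit, p-values of 10939 genes were adjusted after Benjamini and Hochberg, and the threshold was 0.05. Standard errors and 95% intervals come from the same fit. Ratios of 2 genes used exact permutation tests over libraries. Ratios of pooled counts carry exact Poisson intervals, which cover counting error only, and a count of 0 allows up to 3 counts. Nearest patterns were ranked over all genes tested. The script was tested on simulated data. Plots were made in matplotlib 3.10.9 under Python 3.11.15.

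The labels and the methods place the populations of a number in the same animal, and libraries of a pig deviated together (mean correlation 0.0907, against -0.0226 between pigs and populations), so a fit with the pig as a block was run as an alternative. No pair of libraries of a population looked like 1 library deposited more than once (lowest chi-square per degree of freedom 9.82). Other alternatives were DESeq2 1.42.0, its size factors in edgeR, library totals, other filters, robust dispersion, a fit of the populations compared alone, other pseudocounts, and leaving out each pig or library. Genes are named as the 10 symbols of the list, *LY9*, up to 4 signalling genes that rose and 4 that fell most in each lrNK comparison, and the 2 nearest patterns of each gene. Other signalling genes, *VAV3* and the 2 neighbours in the SLAM span were added after their values were seen. The genes, the lists and the comparisons were chosen with earlier results of these data known. Coordinates come from a table of Sscrofa11.1 without strand. Marker lists of neutrophils (0 to 0.814 CPM in each library), platelets (72.3 to 178 CPM, mostly *GP9*) and red cells (0 to 313 CPM) were also summed. *SLAMF7* was not analysed here, nor were flow cytometry and microscopy.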

Additional observations from a re-analysis of the deposited data

Results flagged for a closer look

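Of 30 sets of 5 libraries (a gene in a population) tested for a library far from the rest, 4 were flagged, and chance flags about 1 in 20. *CD2* in blood pig 4 was at 285 CPM, where the other blood libraries had 511 to 563 CPM. *CD84* was also low in blood pig 4, at 83.5 CPM against 180.5 to 212 CPM in the others. *CD2* in lrNK pig 3 was at 634 CPM, where the other lrNK libraries had 272 to 372 CPM. *SH2D1A* in the liver CD8α high library of pig 1 was at 4.83 CPM (14 counts), against 0 to 0.345 CPM in the others. Blood pig 4 also had the highest red cell marker sum among the blood libraries, 313 CPM against 0 to 6.03 CPM. Its sums were the highest there for NK cells (4488 against 3169 to 3382 CPM) and T cells (1203 against 637 to 940 CPM) as well. What set these libraries apart was not tested.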

How the results depend on the processing

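Calls of *CD244*, *CD84*, *SLAMF6* and *SH2D1B* in both lrNK comparisons kept their direction and an adjusted p under 0.05 under all alternatives that were run on them. In the replicate block fit (pig as a block) *CD244* had a log2 fold change of 0.81 against blood (adjusted p = 0.00109), and of the 9 genes it changed the call of *SLAMF1* (4.99, adjusted p = 0.0524) and of *SH2D1A* (4.40, adjusted p = 0.0401) against liver CD8α high cells and no other. A minimum count of 30 left 6 of the 9 genes, without *CD58*, *SLAMF1* and *SH2D1A*, and fits of the populations compared alone tested 8, 8 and 7. When lrNK pig 3 was left out, 1 gene (*CD2*) was called lower in place of 0 in each lrNK comparison, so that the count of lower calls ranged from 0 to 1 over the libraries left out, and likewise 1 in each without lrNK pig 3 and blood pig 4 together. Some alternatives, mainly those that left out a pig or library, turned the sign of changes that were not called. Over all alternatives run on it, *CD58* ranged from -0.61 to 0.46 (lrNK against blood), -0.35 to 0.28 (lrNK against liver CD8α high) and -0.42 to 0.59 (liver CD8α high against blood). In the last comparison *CD2* ranged from -0.158 to 0.0605, *CD244* from -0.0922 to 0.12, *SH2D1A* from -2.86 to 0.42 and *SH2D1B* from -0.55 to 0.10. The log2 ratio of *CD2* to *CD58* ranged from -1.07 to 0.34, -0.77 to 0.35 and -0.68 to 0.15 in the same order of comparisons, and with a pseudocount of 5 CPM it was -0.21 for lrNK against liver CD8α high. With library totals *CD2* was 0.00438 for liver CD8α high against blood. Without lrNK pig 3 and blood pig 4 together, an alternative chosen after seeing the data, *CD58* was 0.22 (lrNK against liver CD8α high) and -0.25 (liver CD8α high against blood), and in the latter *CD244* was -0.0259, *SH2D1A* 0.18 and *SH2D1B* 0.0264. The cause of these turns was not tested. Over all genes, liver CD8α high and blood differed in 7 genes by edgeR and in 22 by DESeq2. *CD58*, *SLAMF1* and *SH2D1A* had 0 to 51 counts per library, and the spread between libraries adds to their counting error.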
